A study of Homo sapiens with 13 samples.

Results

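The 9 noncoding host transcripts of small nucleolar RNAs described here were GAS5, SNHG1, SNHG3, SNHG5, SNHG6, SNHG7, SNHG8, SNHG12 and ZFAS1. They were taken by symbol from a table of 24875 symbols (the Silvestrol experiment) and a table of 13163 genes (the INK128 experiment). All 9 were present in the INK128 experiment. For Silvestrol, 5 were listed under these symbols and 2 under older ones (SNHG6 as U87HG and ZFAS1 as C20orf199), while SNHG3 and SNHG12 matched no entry. The cells of every group were MDA-MB-231, a human triple-negative breast cancer line. Of the 13 libraries, 9 belonged to the Silvestrol experiment. These were 7 libraries of ribosome footprints (RFs, the mRNA fragments protected by ribosomes) and 2 of poly(A)-selected mRNA. The RF libraries were 1 of untreated cells, 1 each of DMSO and Silvestrol at 1 h, and 2 each (passages 3 and 4) at 2 h. Silvestrol, an inhibitor of the RNA helicase eIF4A, was given at 25 nM for 1 or 2 h, and the mRNA libraries came from cells of passage 3 given vehicle (DMSO) or Silvestrol for 2 h. The other 4 libraries, all from passage 3, were RFs and total RNA of cells given DMSO or the catalytic mTOR inhibitor INK128 at 200 nM for 2 h. The mRNA libraries and all 4 libraries of the INK128 experiment were single, so the changes below have no replicate check and no p-value.

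A snoRNA host gene is transcribed and spliced, the snoRNA is trimmed out of an intron, and the joined exons leave the nucleus as a capped, polyadenylated RNA. The snoRNAs guide chemical changes of ribosomal RNA: those of the C/D box class (SNORD) guide 2′-O-methylation and those of the H/ACA class (SNORA) guide pseudouridylation. The spliced hosts named here encode no known conserved protein, but many begin with a 5′ terminal oligopyrimidine tract (TOP), the element that ties translation of ribosomal protein mRNAs to mTOR. Ribosomes that enter such an RNA meet short reading frames with exon junctions downstream, and the RNA is then a substrate of nonsense-mediated decay (NMD). GAS5 was found as a transcript that accumulates in growth-arrested cells, SNHG1 is the host of the U22 snoRNA, and ZFAS1 lies antisense to the start of ZNFX1.

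The start sites are shown first, because a TOP transcript begins with a pyrimidine run. The search used here is looser, since a run may lie on either side of the annotated start. Each line below holds 30 bases on the transcribed strand of GRCh37, 10 before and 20 from the most frequent GENCODE v44lift37 start on, and the capitals mark the longest run of 5 or more C or T that reaches within 5 bases of the start. In SNHG1 and SNHG7 the start base itself lies in a shorter run, left in lower case (ttctc and tcctct). The marked run of SNHG7 lies wholly before the start, and that of SNHG1 begins after it.
GAS5: accatactgTCTTTTCgaggtaggagtcga
SNHG1: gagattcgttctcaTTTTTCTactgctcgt
SNHG7: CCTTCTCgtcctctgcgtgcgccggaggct
SNHG8: aggcctcggCCTTTCacattcgggaagcgt
SNHG12: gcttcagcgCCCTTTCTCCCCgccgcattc
ZFAS1: gccattcgTTCTTTCgcgtctgcggtgccc
SNHG5: ggagctactggctgcgcacttcggtctttt

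The windows lay on the minus strand at chr1:173837108-173837137 (GAS5), chr11:62623338-62623367 (SNHG1), chr9:139622617-139622646 (SNHG7), chr1:28908366-28908395 (SNHG12) and chr6:86388447-86388476 (SNHG5). Those of SNHG8 (chr4:119199903-119199932) and ZFAS1 (chr20:47895169-47895198) lay on the plus strand. Such a run was found in 7 of the 9 hosts (77.8%), SNHG6 included, and not within that distance in SNHG3 or SNHG5. For SNHG5 the deposited locus began 15 bases downstream of the start used here, at the final ctttt of its line. The same search found a run in 33.3% of 11273 genes of the INK128 table, in 31.8% of 352 long noncoding RNA genes and in 90.4% of 73 RPS and RPL genes. A run is a match of letters in the annotated window and no measurement of the start used in these cells.

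The cells carried the markers of the line. With DMSO the mRNA level was 1461 RPKM for VIM, 149.5 for CD44 and 32.2 for EGFR, while ESR1 was listed at 0 and CDH1 at 0.0853. The mRNA libraries held 50315607 counted reads with DMSO and 24792922 with Silvestrol. The INK128 table gives FPKM only, so the depth of its libraries is unknown.

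With INK128 the RF level of each of the 9 hosts was lower, by 1.60- to 3.49-fold, and 8 passed 2-fold. Across the 10843 genes with a mean RF level of at least 1 FPKM, 1.48% were past 2-fold lower and the median log2 change was 0.02. The median over the hosts was −1.44. The question put by this pair of libraries is which transcripts lose ribosomes when mTOR is inhibited.

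SNHG5, the U50 snoRNA host, had the largest fall, from an RF level of 76.0 FPKM with DMSO to 21.8 with INK128 (log2 change −1.80). GAS5 followed with 116.5 FPKM against 34.5 (−1.76), and SNHG12 with 16.9 against 5.04 (−1.75). These 3 kept between 28.7% and 29.8% of their RF level, and 0.304% to 0.350% of all genes had a larger fall. SNHG6, the host of SNORD87, fell from 83.5 to 29.2 FPKM (−1.51). ZFAS1 fell from 116.2 to 42.8 FPKM (−1.44). These values place both hosts in the middle of the group, with 35.0% and 36.9% of the RF level left.

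SNHG8 had the highest RF level of the group, at 188.8 FPKM with DMSO against 78.0 with INK128 (−1.27). SNHG1 had 33.9 FPKM with DMSO and 14.2 with INK128 (−1.26). SNHG3, a host with no such pyrimidine run within 5 bases of the start used, had the lowest level with DMSO, 15.4 FPKM against 7.42 (−1.06). SNHG7 was the exception to the 2-fold count, with 39.3 FPKM against 24.5 (−0.68), and 2.39% of genes had a larger fall. With single libraries the order of neighbouring hosts, such as SNHG8 and SNHG1, cannot be told from an equal change.

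**Figure D1:**
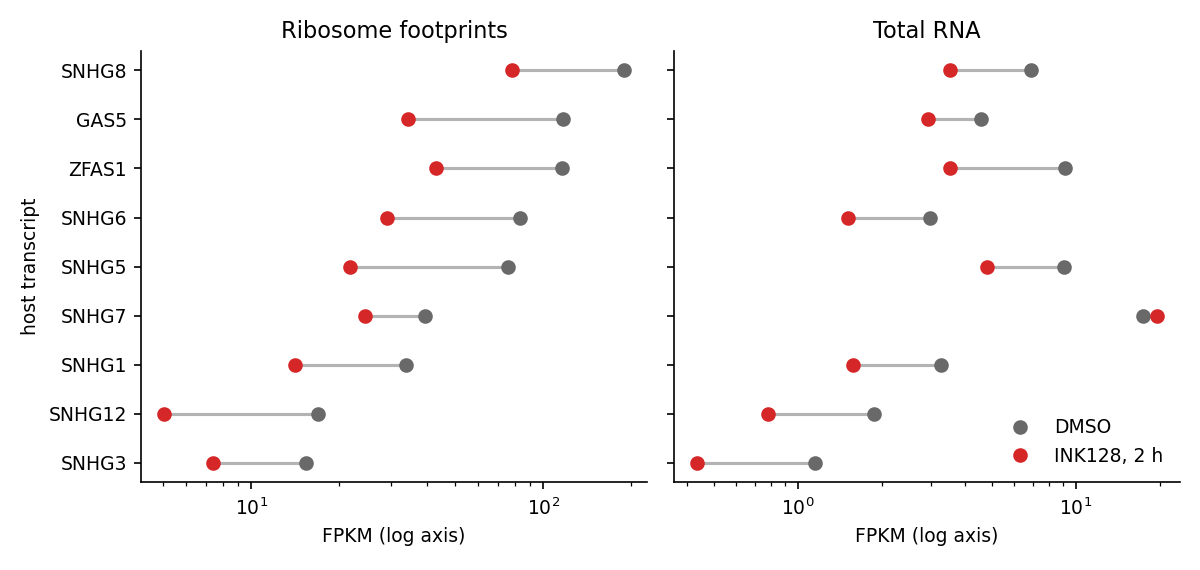
RF level (left) and total RNA level (right) of the 9 host transcripts in FPKM on log axes, ordered by their RF level with DMSO, with 1 library per point (grey DMSO, red INK128 for 2 h). The red point lies left of the grey one for all 9 hosts in RFs and for 8 of 9 in total RNA, the exception being SNHG7 at 17.4 FPKM with DMSO and 19.5 with INK128.

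Total RNA told less. The total RNA level was lower in 8 of the 9 hosts, but the median log2 change over all 3171 genes with a mean of at least 1 FPKM was −1.15 and 71.5% of those genes were past 2-fold lower. Only 3 of the 8 hosts past this filter were past 2-fold lower. The median of the 8 hosts was −0.97, which is 0.17 above the median of all genes. Genes of small RNAs (355 genes whose symbols begin with SNOR, RNU, MIR, VTRNA, RNY, SCARNA and similar) held 99.4% of the summed total RNA FPKM with DMSO and 99.7% with INK128. Whether this sum set the scale of the other genes was not tested.

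GAS5 had 4.56 FPKM of total RNA with DMSO and 2.93 with INK128 (−0.63), a change 0.51 above the median of all genes. SNHG7 had 17.4 and 19.5 FPKM (0.17), which is 1.32 above that median. No other host lay more than 0.26 from the median. SNHG5 had 9.08 and 4.77 FPKM (−0.93). SNHG6 had 2.99 and 1.52 (−0.98), and SNHG8 had 6.89 and 3.52 (−0.97). These lay 0.17 to 0.22 above the median.

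SNHG1 had a total RNA level of 3.27 FPKM with DMSO and 1.58 with INK128 (−1.05, or 0.10 above the median of all genes). SNHG12 had 1.89 and 0.783 (−1.27), and ZFAS1 had 9.16 and 3.53 (−1.38). SNHG12 and ZFAS1 lay 0.12 and 0.23 under the median. SNHG3 had 1.16 and 0.435 FPKM (−1.41), a mean below 1 FPKM, so it did not pass the filter. Relative to the median of all genes, 6 of the 8 hosts were higher and 2 lower, 1 of them (SNHG7) was past 2-fold higher, beside 10.9% of genes, and none was past 2-fold lower, beside 0.189% of genes.

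The RF level divided by the total RNA level gives the footprints per RNA of each host. It was taken over the 10843 genes past the RF filter, most of which did not pass the total RNA filter. With DMSO it was 27.9 for SNHG6, 27.4 for SNHG8 and 25.6 for GAS5, above the median of 14.5 over all genes, and 81.4% to 84.9% of genes had a lower ratio. It was 13.4 for SNHG3, 12.7 for ZFAS1 and 10.4 for SNHG1. SNHG12 (8.98), SNHG5 (8.37) and SNHG7 (2.26) had the lowest ratios, and 4.12% of genes were under SNHG7. These noncoding RNAs thus ranged from a ratio in the low part of all genes to one above the median. Fragments protected by something other than a ribosome cannot be told apart from RFs in these values.

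With INK128 the ratio fell in 8 of the 9 hosts, whereas its median over all genes rose by 1.19 on the log2 scale. Relative to that median, 8 of 9 hosts were past 2-fold lower, beside 3.82% of all genes. GAS5 had the largest relative fall (−2.31), from a ratio of 25.6 to 11.8. SNHG5 (−2.06) and SNHG7 (−2.04) followed, so SNHG7, whose RF level changed least, came right after GAS5 and SNHG5 in footprints per RNA. This place rests on the total RNA of SNHG7, whose change was 1.32 above the median. The ratio of SNHG7 went from 2.26 to 1.26. SNHG3 was not past 2-fold (−0.84), with a ratio of 13.4 and then 17.0, which rests on total RNA below the 1 FPKM filter. Over the 3144 genes past both filters, a set chosen after seeing the data, the median rose by 1.14. All 8 hosts in that set were past 2-fold lower relative to it (−1.21 to −2.26), beside 8.17% of genes. With DMSO 13.2% of these genes lay under SNHG7. Over the 10843 genes past the RF filter, the remaining hosts lay between −1.25 for ZFAS1 and −1.72 for SNHG6.

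**Figure D2:**
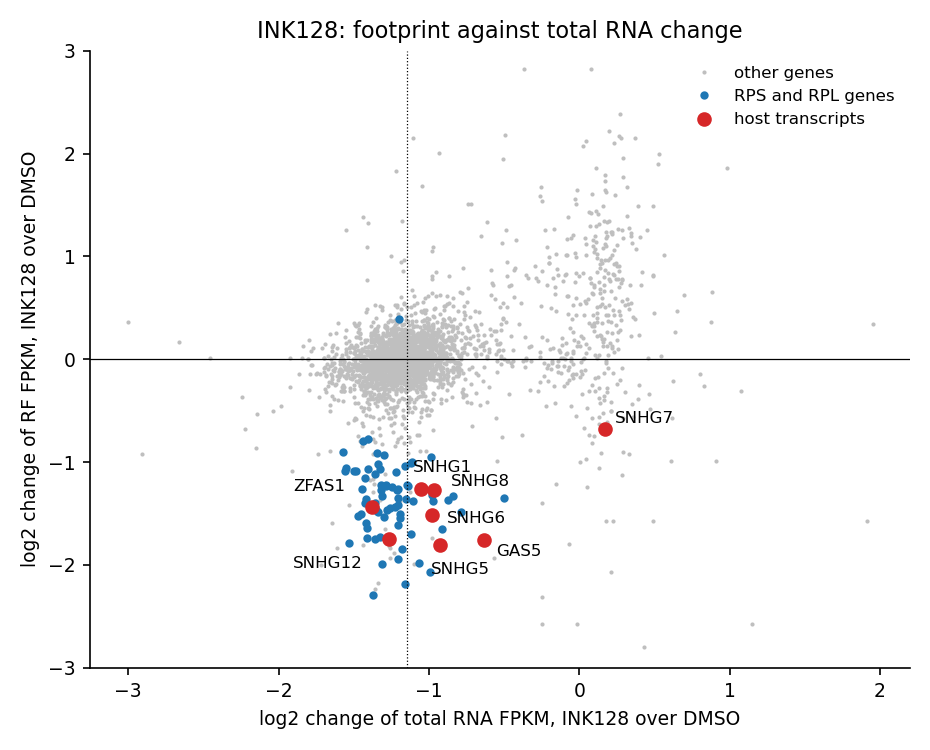
Log2 change of RF FPKM (vertical axis) against log2 change of total RNA FPKM (horizontal axis) with INK128, for 3138 genes past the RF and total RNA filters. The 8 host transcripts are in red and 73 RPS and RPL genes in blue. The dotted line marks the median total RNA change of −1.15, and 6 genes beyond 3 on the vertical axis are not drawn. All red points lie below 0 in RF change, and 7 of 8 lie among the blue ones, with SNHG7 far to the right.

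Genes that share a feature with the 9 hosts were described from lists of other hosts and of NMD genes. Of 42 protein-coding snoRNA hosts, many of them ribosomal protein genes, all passed the RF filter (median −1.25). With INK128, 29 of these 42 were past 2-fold lower, beside 1.48% of all genes. The translation factor EEF2 went from 537 to 207 FPKM and TPT1, a TOP mRNA, from 880 to 221 FPKM. The helicase gene EIF4A1 (674 and 615 FPKM) and NCL, the nucleolin gene (211 and 208 FPKM), were among the coding hosts that were not past 2-fold. All 73 RPS and RPL genes passed the filter, with 65 past 2-fold lower, beside the same 1.48%, and a median of −1.36. The 9 noncoding hosts and the ribosomal protein genes thus had RF medians within 0.1 of each other on the log2 scale.

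Of 12 other noncoding snoRNA hosts listed, 8 passed the RF filter, and their median was −0.64. None of the 8 was past 2-fold lower, beside 1.48% of all genes. The list is not exhaustive, as C17orf76-AS1 (−1.93) and C6orf48 (−1.38) were left out of it. The count of 0 therefore does not set the 9 hosts apart from every other noncoding host. Several of the 8 had a lower value than SNHG7 (−0.68). EPB41L4A-AS1 came closest, at 4.30 FPKM with DMSO and 2.15 with INK128 (−0.996, just inside 2-fold). SNHG16 went from 27.5 to 15.8 FPKM (−0.80) and SNHG17 from 17.3 to 9.98 (−0.79). SNHG9 was the host with a higher RF level, 38.1 and 42.8 FPKM (0.17), although its total RNA fell from 4.15 to 0.657 FPKM (−2.66). No test of the difference between the 9 hosts and these is possible with single libraries.

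The medians of the NMD lists in RFs lay near that of all genes (0.02). Of 21 NMD factors, 20 passed the RF filter (median 0.05, range −0.32 to 0.48). None was past 2-fold in either direction, beside 1.48% of all genes past 2-fold lower. UPF1, the helicase of the pathway, had 26.6 FPKM with DMSO and 27.8 with INK128. All 16 mRNAs known as NMD targets passed, again with none past 2-fold (median −0.17, range −0.55 to 0.19). In lists of this size a count of 0 is close to the share of all genes and is no result about NMD genes. ATF4, a stress transcription factor whose mRNA has upstream reading frames, had 50.5 and 34.5 FPKM. GADD45A, a growth arrest gene, had 104.2 and 83.7 FPKM.

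**Figure D3:**
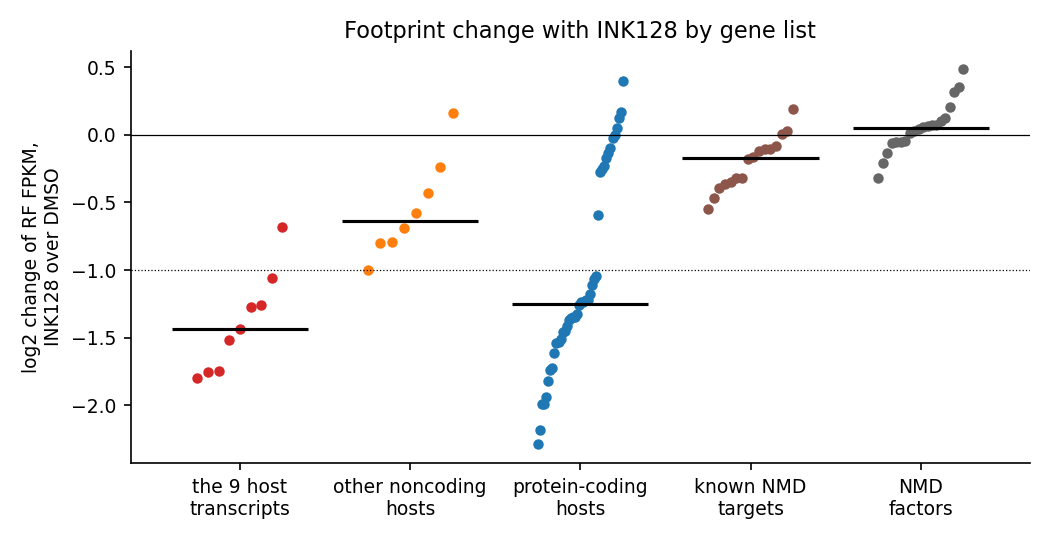
Log2 change of RF FPKM with INK128 for each gene of 5 lists, with 1 point per gene past the RF filter, sorted within a list, a bar at the list's median and a dotted line at 2-fold lower. The 9 host transcripts (median −1.44) and the protein-coding hosts (−1.25) lie lowest. The other noncoding hosts that were listed (−0.64) lie between, and the known NMD targets (−0.17) and NMD factors (0.05) near 0.

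The INK128 table also held 30 snoRNA genes inside the loci of 8 hosts, none overlapping an exon of the host's canonical transcript, although other annotated transcripts retain some of them (53 of 91 for GAS5). In total RNA all 30 had a change above that of their host, but nearly all snoRNAs of other loci also lay above 7 of these hosts. Of the 195 other SNORA and SNORD genes, 194 lay above GAS5 and all 195 above each of SNHG1, SNHG5, SNHG6, SNHG8, SNHG12 and ZFAS1. SNHG7 was the exception, with 82 of the 195 above it. The count of 30 is thus close to that of the whole class and is no result about these loci. Their log2 changes ran from −0.52 to 0.70 with a median of 0.13, none was past 2-fold, and the median of all 225 SNORA and SNORD genes was 0.14. The total RNA scale is that of the deposited FPKM, on which the median gene lies at −1.15.

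The GAS5 locus (chr1:173833039-173837125) held 10 C/D box snoRNAs. Their total RNA changes ran from −0.51 for SNORD81 to 0.70 for SNORD47, with a median of 0.26 against −0.63 for GAS5. SNORD74, the most abundant of them, had 75992.7 FPKM with DMSO and 86832.3 with INK128. The SNHG1 locus (chr11:62619460-62623360) held 8, with changes from −0.09 to 0.34 and a median of 0.06 against −1.05 for SNHG1. SNORD30 had 121474 FPKM with DMSO and 136648 with INK128. On the FPKM scale each of these snoRNAs was far above its host, and each had a change above that of its host.

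In the SNHG12 locus (chr1:28905050-28908366) 4 snoRNAs changed by −0.26 to 0.23 against −1.27 for the host. In the ZFAS1 locus (chr20:47894715-47905795) SNORD12, SNORD12B and SNORD12C changed by 0.24, 0.27 and 0.14 against −1.38. SNORD50A (−0.52) and SNORD50B (−0.19) of the SNHG5 locus (chr6:86386725-86388451) and SNORD87 (−0.35) of SNHG6 were lower with INK128. SNORA24 in SNHG8 (chr4:119199917-119200978) changed by 0.08 against −0.97 for its host. The closest pair was SNORA43 (0.21), which the authors' table marks as low data, and SNHG7 (0.17, chr9:139619046-139622636).

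In the RF libraries the snoRNA genes were also read, and 29 of the 30 had a higher level with INK128 (median 0.78, with 0.77 over all 225). So had 157 of the 195 other SNORA and SNORD genes (80.5%). SNORD44 had an RF FPKM of 3079 with DMSO and 4001 with INK128, whereas GAS5 around it had 116.5 and 34.5. SNORD22 of SNHG1, at 441 and 221 FPKM (−0.99), was the exception. The difference in RF change between these snoRNAs and the rest of their class was not tested. The part of snoRNA fragments in the hosts' RF and total RNA levels was not tested.

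**Figure D4:**
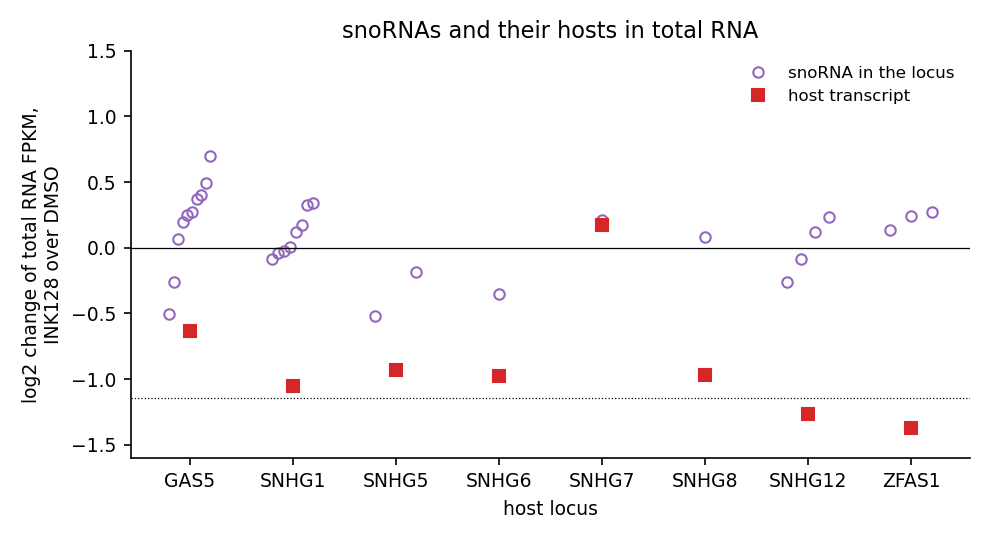
Log2 change of total RNA FPKM with INK128 for 8 host transcripts (red squares) and the 30 snoRNA genes inside their loci (open circles), with a dotted line at the median of all genes (−1.15). All circles lie above the square of their host, by the least for SNHG7 (0.17) and SNORA43 (0.21).

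Silvestrol gave another picture at the RNA level. In poly(A)-selected mRNA after 2 h, 4 of the 7 hosts were higher, 2 were lower and GAS5 had an interval that held 0, by 95% exact (Clopper-Pearson) intervals that cover counting error only. SNHG6 and SNHG8 were past 2-fold higher, beside 6.46% of the 11654 genes with a mean level of at least 1 RPKM, and no host was past 2-fold lower, beside 1.47%. The median log2 change in CPM (counts scaled to the library total) was 0.55 over the 7 hosts, 0.11 over all genes and 0.28 over the 958 genes whose entries have no protein accession. Among those 958 genes, 17.0% were past 2-fold higher.

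SNHG6 had 2201 reads with DMSO and 2181 with Silvestrol in a library of fewer reads, a change of 1.01 (2.01-fold, interval 1.89 to 2.13), and its level was 74.6 and 143.0 RPKM. SNHG8 had 2848 and 2810 reads, a change of 1.00 (2.00-fold, interval 1.90 to 2.11), and 73.4 and 140.7 RPKM. Both stood at the 2-fold line, and the log2 ratio of the deposited RPKM values was 0.94 for each, so neither passed 2-fold on that scale (5.43% of genes did). SNHG5 had 2756 and 2318 reads, a change of 0.77 (1.71-fold, interval 1.61 to 1.80), and 56.2 and 96.1 RPKM. ZFAS1 had 5247 and 3773 reads, a change of 0.55 (1.46-fold, interval 1.40 to 1.52), and 171.9 and 236.8 RPKM. A further ZFAS1 entry with other positions counted gave 0.71. ZFAS1 overlaps the antisense gene ZNFX1. The libraries were strand-specific and positions shared by canonical transcripts were left out of the RPKM values, but whether the read counts used strand is not stated.

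GAS5 had 6692 reads with DMSO and 3300 with Silvestrol, a change of 0.00 (1.00-fold, interval 0.96 to 1.04), with 82.7 and 78.6 RPKM. SNHG1, the host with the most reads, had 17734 and 8045, a change of −0.12 (0.921-fold, interval 0.897 to 0.945), with 103.6 and 91.5 RPKM. SNHG7 had 1957 and 847 reads, a change of −0.19 (0.878-fold, interval 0.809 to 0.953), with 16.3 and 13.6 RPKM. A further SNHG7 entry gave 0.01 (interval −0.13 to 0.15), so whether it was lower depends on the entry used. Relative to the median of all genes, these 3 hosts lay at −0.11, −0.23 and −0.30, and the 4 others between 0.43 and 0.90. With scaling factors from edgeR's TMM method, which moved the median of all genes from 0.11 to −0.04, no host was past 2-fold and GAS5 was at −0.15.

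The hosts on either side also differed in the length over which reads were counted, taken here as CPM divided by RPKM. This length is approximate, as the same GAS5 entry gave 1607 bases from the DMSO library and 1693 from the Silvestrol library. The values below are from the DMSO library. The length was about 587 bases for SNHG6, 607 for ZFAS1, 772 for SNHG8 and 974 for SNHG5, the hosts that were higher. These were 16.2%, 5.5%, 72.7% and 56.4% of their loci, in that order. For GAS5, SNHG7 and SNHG1 the length was about 1607, 2380 and 3402 bases, or 39.3%, 66.3% and 87.2% of their loci. The canonical GENCODE transcripts of GAS5 and SNHG1 hold 768 and 1162 spliced bases, so positions outside those exons were counted. That of SNHG7 holds 2357 spliced bases, about the length counted for it. Over all genes the median change went the other way, from −0.13 for 1095 genes with up to 1000 counted bases to 0.28 for 4437 genes with more than 4000. Among genes without a protein accession it also rose with length, but from 0.16 (378 genes) to 0.57 (120 genes). The part of intronic reads in the changes of GAS5 and SNHG1 was not tested.

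**Figure D5:**
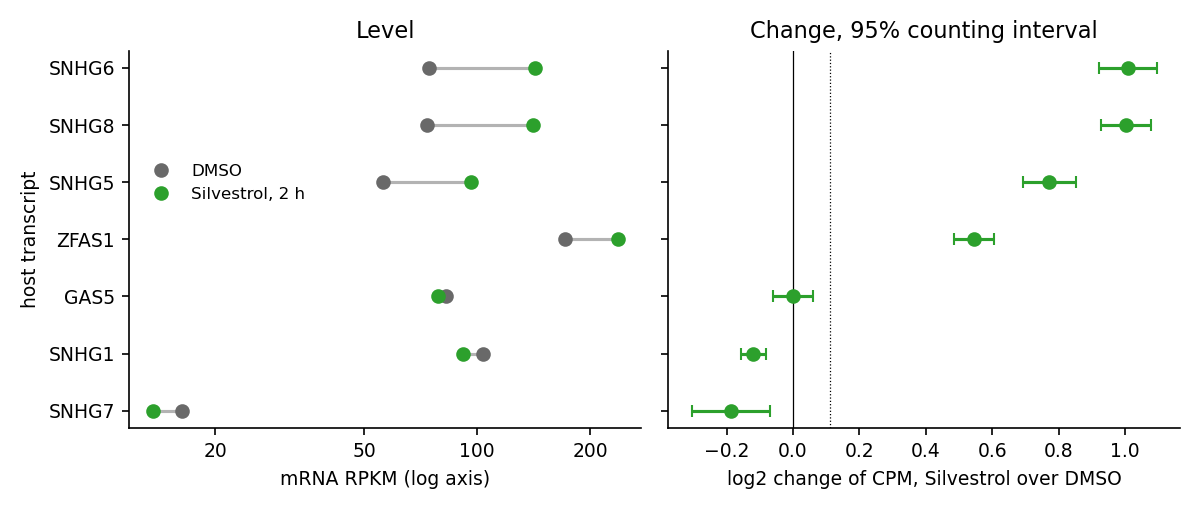
mRNA level of 7 host transcripts in RPKM on a log axis (left, grey DMSO and green Silvestrol for 2 h, 1 library each) and log2 change in CPM with its 95% exact counting interval (right, dotted line at the median of all genes, 0.11). SNHG6 and SNHG8 sit at 1.01 and 1.00, SNHG5 and ZFAS1 at 0.77 and 0.55, and GAS5, SNHG1 and SNHG7 at or below 0.

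The RFs of the hosts cannot be followed under Silvestrol. The Silvestrol table gives an RF RPKM for none of the 7 hosts, and its RF reads were 0 in all 7 RF libraries for 6 of them. SNHG5 had 5 RF reads in all, 2 of them with Silvestrol at 1 h. Of 6945 entries without a protein accession, 81.1% have no RF RPKM, so these blanks are a property of the table and no measurement of ribosomes. Footprints per RNA were therefore not computed for the hosts with Silvestrol.

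The coding hosts, which do have RFs, were tested at 2 h in the replicated RF libraries (2 passages for each treatment, edgeR's quasi-likelihood test, p-values adjusted by Benjamini-Hochberg over all genes). Of 34 tested, 1 was higher and none lower, beside 2.03% and 7.47% of 10596 genes. The host called was HSPA9, the mitochondrial HSP70 (0.58, SE 0.12, adjusted p = 0.044). With passage as a block 15 were higher and 2 lower, beside 24.7% and 28.0% of genes. Translational efficiency (TE, RFs relative to mRNA) was tested with 1 mRNA library per treatment, so the RF libraries alone gave the spread and the mRNA libraries are assumed to vary like them. TE of these hosts changed in 0 of 34 by the same test (0.0189% of all genes were lower), with 4 at an unadjusted p under 0.05 and 0 by DESeq2. With the block 16 were higher and 3 lower (21.9% of genes in each direction). In simulated counts, 200 genes were given a log2 change of 2. The TE test recovered 74 of them, and the RF test 187. The TE test thus misses many large changes, and its count of 0 does not show that TE was unchanged. The median log2 RF change of the coding hosts was 0.27, or 0.61 within passage 3 and −0.08 within passage 4 as RPKM ratios. At 1 h, with single libraries, 8 of 34 coding hosts were past 2-fold lower, beside 5.15% of 10585 genes. Their median at 1 h was −0.17 in CPM and −0.48 as a ratio of deposited RPKM, against −0.05 in CPM over all genes.

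The NMD lists are given here for Silvestrol, first in mRNA and then in RFs. Among 20 NMD factors past the mRNA filter, UPF2 and UPF3B, which join UPF1 on the RNA, were past 2-fold higher (1.08 and 1.30), beside 6.46% of all genes, and the median was 0.17. Of 16 known NMD targets, 4 were past 2-fold higher, beside the same 6.46%, and the median was 0.40. ATF3 went from 8.94 to 34.2 RPKM (1.99), GADD45A from 35.7 to 131.8 (1.81), DDIT3 from 39.1 to 98.1 (1.38) and SRSF3 from 28.2 to 59.6 (1.09). ATF3, GADD45A and DDIT3 are also stress genes. In RFs, edgeR called 2 of 21 NMD factors higher and 1 lower, beside 2.03% and 7.47% of all genes. With passage as a block 5 were higher and 5 lower, close to the 24.7% and 28.0% of all genes. The exon junction factor EIF4A3 fell by 0.84 (SE 0.14, adjusted p = 0.032), CASC3 rose by 0.83 (SE 0.14, adjusted p = 0.034) and NBAS, also higher, was the third. Among the 16 targets RASSF1 rose by 0.86 (SE 0.17, adjusted p = 0.044) and TRA2B, which was lower, was the other called. With the block 7 of the 16 targets were higher and 4 lower, beside the same 24.7% and 28.0%. Without the Silvestrol library of either passage none of these calls, HSPA9 included, passed (adjusted p from 0.14 to 0.32).

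Side by side, the 2 drugs gave the hosts different orders at the RNA level. Relative to the median gene of each experiment, SNHG6 and SNHG8 were at 0.90 and 0.89 in mRNA with Silvestrol and at 0.17 and 0.18 in total RNA with INK128. GAS5 and SNHG7, on the same relative scale, were at −0.11 and −0.30 with Silvestrol and at 0.51 and 1.32 with INK128. The libraries differ in selection (poly(A) against total RNA), counting and drug, so these values are set side by side without a test.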

How the data were processed

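RFs and mRNA or total RNA of MDA-MB-231 cells were sequenced (HiSeq 2000). For the Silvestrol experiment the authors removed rRNA reads, aligned the rest to hg19 with Bowtie (labels: Bowtie2, CASAVA 1.8.1) and deposited read counts and RPKM per transcript, leaving non-unique positions out of the RPKM. For the INK128 experiment they deposited FPKM. The program is not given in the sources used here. The control mRNA column carries no treatment name. Its library is DMSO by title but untreated by its treatment field, and the passage 3 Silvestrol RF library of 2 h has a treatment field of 1 h. Titles were used for both, so mRNA changes could be against untreated cells and the 2 h RF test could hold a 1 h library if the fields are right. The authors' columns of TE, its log2 change, z-scores and averages were not used.

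The 38897 lines were reduced to 25758 distinct entries, and for a symbol with several entries the one with the highest RF, then mRNA, level was kept. mRNA changes are log2 ratios of CPM (counts over the library total), with 95% exact Clopper-Pearson intervals (counting error only; scipy 1.17.1). INK128 changes are log2 FPKM ratios without a pseudocount. Filters were a mean of 1 RPKM or 1 FPKM. RF and TE counts of 10596 genes (mean RF RPKM of at least 1, mRNA RPKM of at least 0.3) were tested with edgeR 4.0.16 (adjusted p of at most 0.05), and DESeq2 1.42.0 was the alternative. The TE test had 1 mRNA library per treatment, so only the RF libraries gave it a spread. Scripts were tested on simulated counts. The study calls the libraries of passages 3 and 4 biological replicates. Passage numbers from the labels pair the RF libraries (correlation of deviations 0.741).

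Named genes were all 9 hosts, and list genes given as examples. Members and lists were chosen with earlier results of these data known. A planned search for genes with a pattern like that of GAS5 over the 9 Silvestrol libraries could not be made, as GAS5 has no RF values there. The sequence of the SNHG6 start is not reported here.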

Additional observations from a re-analysis of the deposited data

How the results depend on the processing

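The RF fall with INK128 kept its count (8 of 9 past 2-fold) and its median to within 0.1 with a pseudocount of 0.5 FPKM and relative to the median gene. The 3 hosts past 2-fold lower in total RNA became 1 with a pseudocount of 0.5 FPKM (median −0.86), 7 at 1.5-fold, and 0 relative to the median gene (median 0.17). On that last scale 5 of the 8 hosts turned from below to above 0, namely GAS5 (0.51), SNHG5 (0.22), SNHG8 (0.18), SNHG6 (0.17) and SNHG1 (0.10). The 2 hosts past 2-fold higher in mRNA with Silvestrol became 0 with RPKM ratios, with a pseudocount of 0.5 RPKM, with TMM factors (median of the hosts 0.40) and relative to the median gene (0.43), an alternative chosen after seeing the data. GAS5, at 0.00 in mRNA with Silvestrol, was below 0 under all 4 of these. Of the values for single hosts and medians over all alternatives, 69 stayed close to the main value, 28 moved with the same sign and 11 changed sign, the last being those just named and the coding hosts' RF median within passage 4 (−0.08 against 0.27). The 6 genes named from the RF test kept their calls with DESeq2, without TMM, with no minimum and with the block, while 3 lost them without the DMSO library of passage 3 and 3 without that of passage 4. With passage as a block, 17 coding hosts changed in RFs rather than 1, and 19 rather than 0 in TE. The RF count was 3 with DESeq2, 2 without TMM and 3 with no minimum, and ran from 0 to 4 when each library was left out, with 4 without the DMSO library of passage 4 and 0 without any other. The TE count ran from 0 to 3, the 3 without that same library. A library left alone in its group was assumed to vary like the other group. For most of these the cause was not tested. Single libraries and unknown FPKM depth limit the order of the hosts.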

Other observations

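Genes near the hosts in both INK128 changes were looked up after the values had been seen. Of 10834 other genes, the 20 nearest to the hosts' median (−1.44 in RFs and −0.98 in total RNA, by distance on the log2 scale) included 15 RPS or RPL genes. The nearest was FTL, the ferritin light chain gene, at −1.47 and −0.98. RPS24, at −1.52 and −0.99, and FTH1, the ferritin heavy chain gene, were also among the 20, the latter at −1.24 and −0.97. C6orf48, at −1.38 and −1.19, was another. The distance uses the same libraries as the hosts' own values and is a description.

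With Silvestrol the other noncoding hosts in mRNA were near the median gene, except EPB41L4A-AS1, with 240 reads with DMSO and 216 with Silvestrol (a log2 change of 0.87). SNHG9 had 581 and 369 reads (0.37), SNHG15 had 2401 and 1203 (0.02), SNHG20 had 264 and 136 (0.06) and SNHG11 had 535 and 264 (0.00). None of these 5 was past 2-fold.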
